A study of Mus musculus with 2 samples.

Results

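The 9 genes described here encode nuclear receptors: the 3 members of the NR4A family (Nr4a1, Nr4a2 and Nr4a3), the glucocorticoid receptor Nr3c1, and 5 receptors of the group that pairs with, or is, a retinoid X receptor (Pparg, Ppard, Rxra, Rara and Vdr). They were chosen by symbol, and all 9 were found among the 55536 annotated gene entries. The RNA came from mouse bone-marrow-derived macrophages, primary cells of strain C57BL/6J cultured from marrow, exposed for 60 min to 100 ng/ml of Lipid A. This molecule is the part of bacterial lipopolysaccharide that Toll-like receptor 4 recognises. The nucleoplasmic fraction of the nucleus was taken, ribosomal RNA was depleted, and total RNA was sequenced. The levels can thus include transcripts not yet exported, and the part of them that is nascent was not measured. The labels give 1 group of 2 biological replicates, from separate biosamples that carry 1 donor label. The starting amount of RNA was 1 µg in replicate 1 but 500 ng in replicate 2, and the fragment size range was 250 to 400. Every cell was stimulated, so a level here does not say whether a gene was induced.

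Nuclear receptors are transcription factors with a zinc-finger DNA-binding domain and a ligand-binding domain. In the NR4A proteins the ligand pocket is filled by side chains, so these receptors act mainly through how much of them is made, and they are classed as immediate early genes of macrophages and other cells. The glucocorticoid receptor waits in the cytoplasm on heat-shock chaperones and represses inflammatory genes once bound by corticosteroid. Peroxisome proliferator-activated, retinoic acid and vitamin D receptors bind DNA as heterodimers with a retinoid X receptor, exchanging corepressor for coactivator complexes when ligand binds.

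The deposited gene tables held 21256531 expected counts for replicate 1 and 15643649 for replicate 2. All 7 macrophage markers checked, Csf1r, Adgre1, Cd68, Itgam, Mertk, Spi1 and Lyz2, were at 10 TPM (transcripts-per-million) or more in both libraries, and their summed level was 2823 TPM in replicate 1 and 2562 TPM in replicate 2. All 5 T cell markers were at 0 counts in both libraries, and the summed level of the B cell, neutrophil, mast cell, fibroblast, adipocyte and endothelial lists lay between 0 and 0.630 TPM. In the second transcript table, a separate quantification of the same libraries, Cd3d of T cells was at 2.80 and 4.07 TPM and Pecam1 of endothelial cells at 2.11 and 5.01 TPM. Among the defining markers at 0 counts in both libraries were Adipoq and Lep of adipocytes. TPM is a share of all RNA in a library, per length, and nuclear protein-coding genes took 25.4% of it in replicate 1 and 18.8% in replicate 2. The median log2 ratio of TPM, replicate 2 over replicate 1, was accordingly -0.42 over the 8622 such genes at 1 TPM or more in each library.

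Of the 9 receptors, Nr3c1 and Nr4a1 were the most abundant per length, Ppard, Pparg, Nr4a3, Rara and Rxra followed at intermediate levels, Nr4a2 was near 1 TPM and Vdr was near 0. In the NR4A family Nr4a1, also called Nur77, held most of the RNA. It was at 31.06 TPM in replicate 1 and 30.78 TPM in replicate 2, a mean of 30.9 ± 0.198 (SD, n = 2), from 1594 and 1484 counts. This close match was not kept on other scales. Rescaled to the total of nuclear protein-coding genes, Nr4a1 was at 122 and 164 TPM, and in the second transcript table at 14.1 and 20.0 TPM. Nr4a3, or NOR1, was at 6.62 and 6.23 TPM, a mean of 6.43 ± 0.276 (SD, n = 2), from 527 and 462 counts. Nr4a2, or Nurr1, was at 0.59 and 1.05 TPM, a mean of 0.820 ± 0.325 (SD, n = 2), from only 43 and 66 counts. The order of the 3 genes was the same in both libraries. The deposited TPM intervals, whose level is not given, overlapped between Nr4a2 and Nr4a3. For these 2 genes they were 0.532 to 7.46 and 5.32 to 7.61 in replicate 1, and 0.890 to 10.2 and 5.02 to 7.15 in replicate 2. The intervals of Nr4a1 lay higher, from 28.0 in replicate 1 and from 27.4 in replicate 2. With 1 bulk sample per replicate, fewer cells that express a gene and less RNA of it per cell cannot be told apart.

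Summed over the family, the level was 38.3 TPM in replicate 1 and 38.1 TPM in replicate 2. Nr4a1 made up 81.2% and 80.9% of that sum, Nr4a3 17.3% and 16.4%, and Nr4a2 1.54% and 2.76%. Within a library, Nr4a1 exceeded Nr4a3 by 2.07 in replicate 1 and 2.14 in replicate 2 on the log2(TPM + 1) scale, a mean difference of 2.10 ± 0.04 (SD, n = 2), and the TPM ratio was 4.69 and 4.94. Nr4a1 exceeded Nr4a2 by 4.33 and 3.95 on the same scale, a mean of 4.14 ± 0.27 (SD, n = 2). Nr4a3 exceeded Nr4a2 by 2.26 and 1.82, a mean of 2.04 ± 0.31 (SD, n = 2). All 3 differences had the same sign in both libraries and were larger than their SD, and with 1 group of 2 libraries there is no test of them. In the second transcript table the order was the same, but Nr4a2 took 7.35% and 6.49% of the family and Nr4a1 71.7% and 75.2%. No stretch of 31 bases was shared between transcripts of the 3 NR4A genes. With transcripts of other genes, Nr4a1 shared 0 of its 3505 distinct stretches, Nr4a2 11 of 4098 and Nr4a3 27 of 5977.

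**Figure D1:**
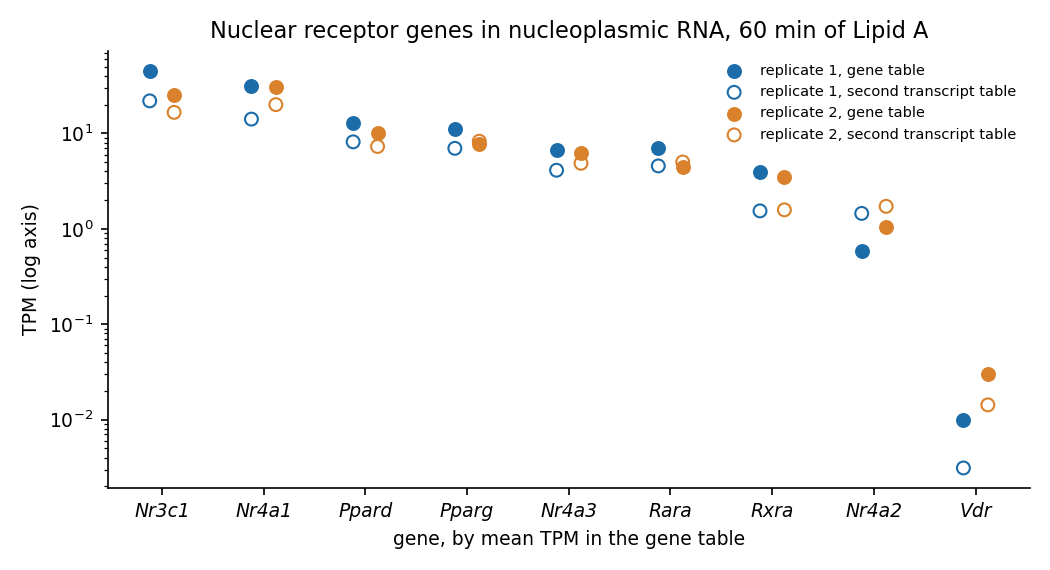
Level of the 9 receptor genes in TPM (log axis) in each library, ordered by the mean of the gene table. Filled points are the gene table and open points the second transcript table, with replicate 1 in blue and replicate 2 in orange. Nr4a1 lies near 31 TPM in both libraries of the gene table, Nr4a2 is the only gene but Vdr below 3 TPM there, and the open points of Nr4a2 alone lie above both filled ones.

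The sequence just before the start of each NR4A gene is shown because the 3 genes share a feature there: several copies of TGACG, the core of the element bound by the cyclic AMP response factors. The sequences are from the RefSeq promoter table (build GRCm38.p6), 5′ to 3′ on the strand of the gene, with TGACG or its complement CGTCA in capitals. That of Nr4a1 lies on the plus strand at chr15:101266596-101266845, that of Nr4a2 on the minus strand at chr2:57124004-57124253, and that of Nr4a3 on the plus strand at chr4:48045055-48045152. The Nr4a3 stretch is the shorter because the GENCODE M21 model Nr4a3-201 begins upstream of the RefSeq start.
Nr4a1 upstream: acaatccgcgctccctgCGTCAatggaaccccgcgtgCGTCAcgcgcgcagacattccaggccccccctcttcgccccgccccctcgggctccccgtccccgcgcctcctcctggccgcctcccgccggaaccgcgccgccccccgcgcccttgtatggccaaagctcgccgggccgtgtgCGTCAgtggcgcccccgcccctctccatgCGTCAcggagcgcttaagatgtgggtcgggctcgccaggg
Nr4a2 upstream: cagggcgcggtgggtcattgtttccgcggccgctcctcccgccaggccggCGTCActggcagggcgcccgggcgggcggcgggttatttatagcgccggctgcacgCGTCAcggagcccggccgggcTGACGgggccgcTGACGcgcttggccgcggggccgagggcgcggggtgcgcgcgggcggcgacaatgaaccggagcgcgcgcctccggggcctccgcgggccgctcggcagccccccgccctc
Nr4a3 upstream: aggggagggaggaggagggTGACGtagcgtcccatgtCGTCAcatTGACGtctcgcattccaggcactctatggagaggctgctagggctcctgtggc

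In the 250 bases before the RefSeq start, counting both strands, TGACG occurred 4 times in each of the 3 NR4A genes. In Nr4a1 the motifs began 233, 213, 69 and 40 bases before the start, all on the strand opposite the gene. In Nr4a2 they began 200, 144, 123 and 111 bases before it, and in Nr4a3 231, 213, 205 and 147 bases before the RefSeq start, the last of these downstream of the stretch printed. Of 32851 windows of 250 bases before annotated starts, 17.8% held TGACG at least once and 0.137%, or 45 windows, held it at least 4 times. Among the 3037 windows with a G and C content of at least 70%, a limit chosen after the values were seen, 0.296% held it at least 4 times. The G and C content was 74.4% for Nr4a1, 80.0% for Nr4a2 and 63.6% for Nr4a3. The palindrome TGACGTCA, which contains TGACG on both strands, was in none of the 3 windows and in 1.55% of all windows.

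Starts of 5 other receptors were in the table: 3 windows for Pparg, 1 for Ppard, 2 for Rxra, 4 for Rara and 1 for Vdr. TGACG was found once, in the most downstream window of Rara, and in none of the others. No GENCODE start of Rara lies within 200 bases of that RefSeq start, at 98964872. AAAGGTCA, the site that NR4A proteins bind as monomers, was searched on both strands as well. It was in 1 window of Rxra, in no other window of these 8 genes, NR4A included, and in 1.34% of all windows. The Rxra window with the match lies before 27709292, the start of Rxra-202, which had 0 counts in both libraries of the first transcript table. A match is a description of the letters and not a bound site, and the absence of one says only that these letters are not in this window.

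**Figure D2:**
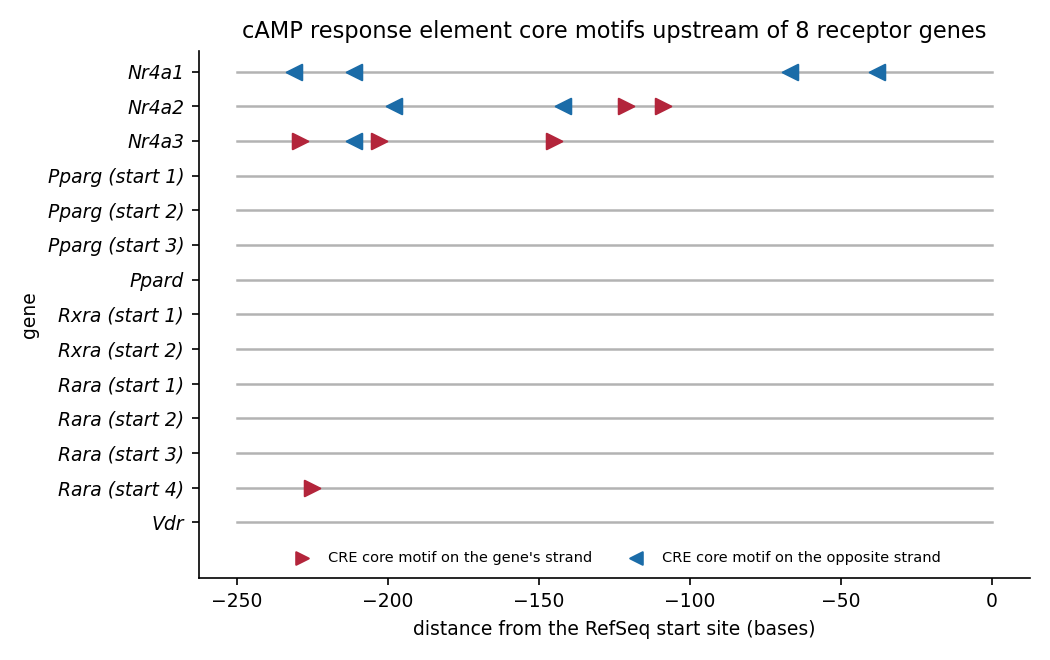
Positions of the core motif of the cAMP response element in the 250 bases before each RefSeq start of 8 receptor genes. Each grey line is 1 start, and arrowheads point right for a motif on the strand of the gene and left for one on the opposite strand. Each NR4A gene has 4 motifs, Rara has 1 at the most downstream of its 4 starts, and the other lines are empty.

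The glucocorticoid receptor gene Nr3c1 was at 45.44 TPM in replicate 1 and 25.00 TPM in replicate 2, a mean of 35.2 ± 14.5 (SD, n = 2), from 3269 and 2176 counts. This was the widest spread in TPM of the 9 genes. Its counts differed little once scaled to the library, with a log2 ratio of -0.09, replicate 2 over replicate 1. The effective length that divides the counts was 2952 bases in replicate 1 and 3748 bases in replicate 2, because the libraries assigned its reads to different transcript models. Nr3c1 exceeded Nr4a1 by 0.53 on the log2(TPM + 1) scale in replicate 1 and was lower by 0.29 in replicate 2, so these 2 genes were not separated. The gene lies on chromosome 18 (39410545 to 39519421, minus strand, mm10) and has 9 transcript models, all annotated as coding.

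Of the peroxisome proliferator-activated receptor genes, Ppard and Pparg had reads and Ppara was at 0 counts in both libraries. Ppard, the broadly expressed fatty acid sensor, was at 12.89 and 10.14 TPM in replicates 1 and 2, a mean of 11.5 ± 1.94 (SD, n = 2). Pparg, the receptor of adipocyte differentiation and of alternative macrophage activation, was at 10.99 and 7.76 TPM, a mean of 9.38 ± 2.28 (SD, n = 2). Ppard exceeded Pparg in both libraries, by 0.21 and 0.35 on the log2(TPM + 1) scale. The mean difference was 0.02 ± 0.25 (SD, n = 2) in the second transcript table, so this order was not kept there. The adipocyte markers Adipoq and Lep were at 0 counts in both libraries. Pparg overlaps Gm44079, an antisense gene that was at 0 counts in both libraries. The strand setting of the counting is not given in the sources used here, so reads of the pair could not be told apart.

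Rxra, the shared heterodimer partner, was lower per length than its partners Ppard, Pparg and Rara in both libraries. It was at 3.94 and 3.50 TPM in replicates 1 and 2, a mean of 3.72 ± 0.311 (SD, n = 2), from 451 and 371 counts over a long transcript. Rara, a retinoic acid receptor, was at 7.07 and 4.39 TPM, a mean of 5.73 ± 1.90 (SD, n = 2). The second retinoid X receptor expressed here, Rxrb, was at 6.33 and 5.82 TPM, above Rxra per length in both libraries, and Rxrg was at 0 counts. By counts Rxrb, at 285 and 218, was below Rxra, at 451 and 371, in both libraries. Without division by length, in counts-per-million (CPM), Rara was not above Rxra: the mean log2(CPM + 1) difference was -0.23. Pparg, at 22.8 and 20.4 CPM, was above Rxra, at 21.4 and 23.8 CPM, in replicate 1 only.

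Vdr, the vitamin D receptor, had 1 count in replicate 1 and 3 counts in replicate 2, or 0.01 and 0.03 TPM. The exact 95% Poisson interval of the counts was 0.0253 to 5.57 in replicate 1 and 0.619 to 8.77 in replicate 2, and it covers counting error only. At 3 counts, the limit that a count of 0 allows, a gene would be at 0.142 CPM in replicate 1 and 0.192 CPM in replicate 2. Vdr was thus at or under that limit, and no ratio was taken. Cyp24a1, the vitamin D 24-hydroxylase and a target of the receptor, was at 0 counts in both libraries, and Cyp27b1, which makes the active hormone, had 4 counts in replicate 1 and 0 in replicate 2.

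In the order of mean TPM, Nr3c1, Nr4a1, Ppard, Pparg, Nr4a3, Rara, Rxra, Nr4a2 and Vdr, 6 of 8 neighbouring pairs kept their sign in both libraries with a difference larger than its SD. The 2 pairs that did not were Nr3c1 with Nr4a1 and Nr4a3 with Rara, whose difference was -0.08 and 0.42 on the log2(TPM + 1) scale. The step from Nr4a1 down to Ppard was 1.21 and 1.51, and that from Rxra down to Nr4a2 was 1.64 and 1.13. The latter was -0.01 ± 0.10 (SD, n = 2) in the second transcript table, where Nr4a2 stood at 1.45 and 1.72 TPM and Rxra at 1.54 and 1.58 TPM. Pparg exceeded Nr4a3 by 0.65 and 0.28 per length, but was lower on the log2(CPM + 1) scale by a mean of -0.32 ± 0.28 (SD, n = 2). Ranked among 22015 nuclear-genome protein-coding genes, Nr3c1 was 1077th and 1434th, Nr4a1 1585th and 1149th, Nr4a3 4873rd and 4341st, Nr4a2 10011th and 8630th, and Vdr 13636th and 12753rd.

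Counts of the 2 libraries were compared after scaling with edgeR's trimmed mean of M-values (TMM), over the 10088 genes with a mean count of at least 50. The ratio describes 2 libraries of 1 condition, and with 1 library on each side there is no test. Of 8 receptors that passed the minimum, 1 was over 2-fold apart, against 1.18% of all genes. That gene was Nr4a2, with a log2 ratio of 1.11, replicate 2 over replicate 1. In the direction of replicate 2, 0.506% of all genes were over 2-fold apart, and 0.674% in the direction of replicate 1. This balance was turned in the second transcript table, with 431 genes higher in replicate 2 and 138 higher in replicate 1. At a mean count of 50 to 60, a range set after the value of Nr4a2 was seen, the share over 2-fold was 4.70%. Nr4a2 was at 2.04 CPM (95% Poisson interval 1.47 to 2.74) in replicate 1 and 4.23 CPM (3.27 to 5.38) in replicate 2. These intervals, which cover counting error only, did not overlap. The deposited TPM intervals of Nr4a2, whose level is not given, did overlap, at 0.532 to 7.46 in replicate 1 and 0.890 to 10.2 in replicate 2. In the second transcript table Nr4a2 had 104 and 161 counts, and its log2 ratio was 0.78, under 2-fold.

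Nr4a1 and Nr4a3 were also higher in replicate 2 by TMM-scaled counts. How many of all genes were higher there by any amount was not counted, so no trait of the family is read from this. The log2 ratio was 0.39 for Nr4a1 and 0.30 for Nr4a3, while the median absolute log2 ratio of all 10088 genes was 0.18. Nr4a1 was at 75.5 CPM (71.8 to 79.3) in replicate 1 and 95.1 CPM (90.3 to 100) in replicate 2. Rxra was at a log2 ratio of 0.21 and Ppard at 0.07, and Nr3c1, Pparg and Rara were lower in replicate 2, at -0.09, -0.11 and -0.15. The TPM of Nr4a1 did not show its higher share of counts, with a log2 ratio of TPM of -0.01. On that scale the median over expressed protein-coding genes was -0.42. The amount of starting RNA differed between the 2 replicates as well, and its part in these ratios cannot be told apart from that of the biosample.

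**Figure D3:**
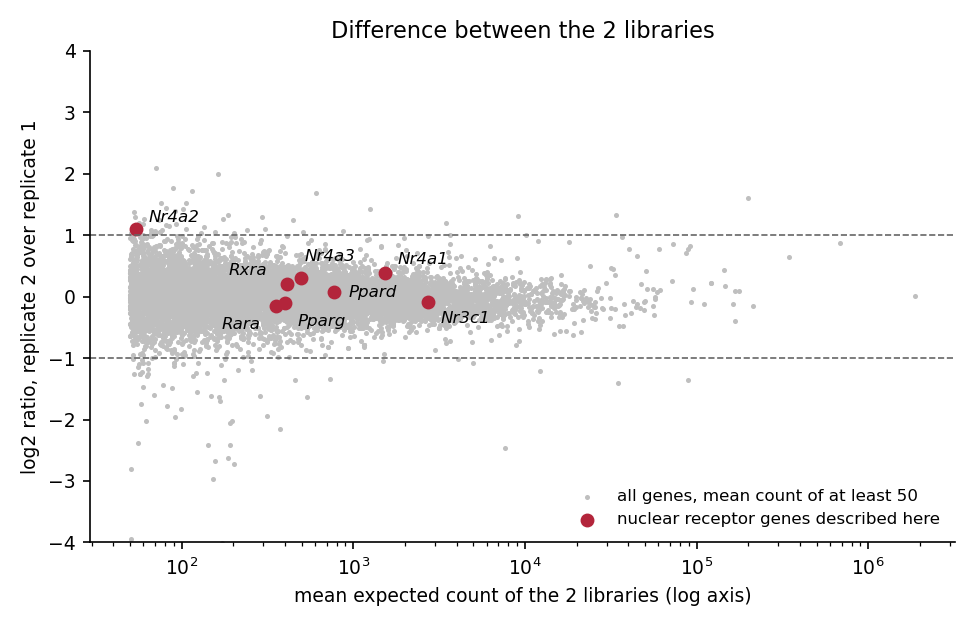
Log2 ratio of TMM-scaled counts, replicate 2 over replicate 1, against the mean expected count (log axis) for 10088 genes in grey, with 8 receptor genes in red and dashed lines at 2-fold. Nr4a2, at the left edge where counts are fewest, is the 1 red point beyond a dashed line, at 1.11. Nr4a1 and Nr4a3 lie above 0, at 0.39 and 0.30.

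The transcript models that held each gene's TPM differed in how well the data fixed them. Nr4a1 was the clearest case: the 7-exon model Nr4a1-201 held 91.1% of the gene's TPM in replicate 1 and 90.9% in replicate 2, with 1567 and 1469 counts. Together with the short model Nr4a1-203 of the same start (101266846 on chromosome 15), it made up 95.8% and 98.4% of the gene. The upstream start of Nr4a1-202, at 101254269, held 0 counts in both libraries of the first transcript table. The start that carried the signal is thus the one behind the sequence printed for Nr4a1. In the second transcript table that start held 92.5% and 97.2%, but Nr4a1-201 took only 66.5% and 68.3%, and most of the rest went to Nr4a1-203, a model of 344 bases.

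For Nr4a2 the libraries disagreed. The start at 57124003 on chromosome 2, that of the printed sequence, held 17.2% of the gene's TPM in replicate 1 and 83.8% in replicate 2. The start at 57115038, inside the gene, held 82.8% and 16.2%. By model, Nr4a2-201 held 69.0% and 0%, Nr4a2-203 17.2% and 42.9%, and Nr4a2-206, annotated as a target of nonsense-mediated decay, 0% and 41.0%. In the second transcript table the 182-base Nr4a2-204 held 68.0% and 46.4% instead. With 43 and 66 counts on 6 models, no start of Nr4a2 was fixed by both tables and both libraries.

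Nr4a3 was spread over 4 models. Those that begin between 48045153 and 48045231 on chromosome 4, Nr4a3-201 and Nr4a3-204, held 55.8% of its TPM in replicate 1 and 39.7% in replicate 2. Nr4a3-203, from an internal start at 48049114, held 21.9% and 39.4%, and Nr4a3-202 was at 1.47 and 1.31 TPM, or 22.2% of the gene in replicate 1. The upstream start thus led by TPM in both libraries, though by little in replicate 2. It led in the second transcript table as well, with 67.6% and 59.4% against 17.8% and 27.2% for the start at 48049114. By counts the order differed between the libraries, with 60.1% and 33.1% on the upstream start and 32.5% and 59.9% on the start at 48049114.

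Nr3c1-208, a 4-exon model of 1891 bases, held 43.1% and 40.1% of the TPM of Nr3c1, and its share was close to that in the second transcript table, 46.0% and 46.7%. The long 8-exon model Nr3c1-204 moved from 18.5% in replicate 1 to 40.1% in replicate 2, while Nr3c1-203 held 13.8% and 9.20% and Nr3c1-206 13.7% and 7.16%. By counts the long model led, with 38.3% and 65.4%. Nr3c1-204 held only 0.496% and 13.7% of the TPM in the second transcript table. This is the shift of models that changed the effective length of the gene between the libraries.

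Pparg has several promoters, one of which, downstream of the others, is used in adipocytes. In the first transcript table Pparg-202 held 62.1% and 51.7% of the gene's TPM in replicates 1 and 2. Pparg-204, which starts downstream of it, held 27.2% and 47.6%. Pparg-201, from the most downstream start with counts (115422066 on chromosome 6), held 10.7% in replicate 1, from 45 counts, and 0.773% in replicate 2, from 2 counts. In the second table the start of Pparg-202 held 35.3% and 35.1%. The start shared by Pparg-203, Pparg-204 and Pparg-206 led there, with 43.8% and 49.4%, and Pparg-201 held 6.63% and 3.62%. The leading model of Rara differed between the libraries in the first transcript table: Rara-204 held 67.4% and 34.8%, Rara-207 5.24% and 45.5%, and Rara-202 27.3% and 19.8%. In the second table the noncoding Rara-205 led in both libraries, with 37.2% and 46.5%, and Rara-207 held 3.89% and 13.5%. Ppard was steadier in the first table, with Ppard-201 at 59.5% and 63.0%, the single-exon retained-intron model Ppard-208 at 22.3% and 20.8%, and Ppard-203 at 11.4% and 7.79%. In the second table Ppard-201 held 32.2% and 43.2%, and the noncoding Ppard-204 held 32.4% and 22.5%. Rxra-201 held 100% and 96.9% of Rxra in the first table, and all counts of Vdr were on Vdr-201.

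**Figure D4:**
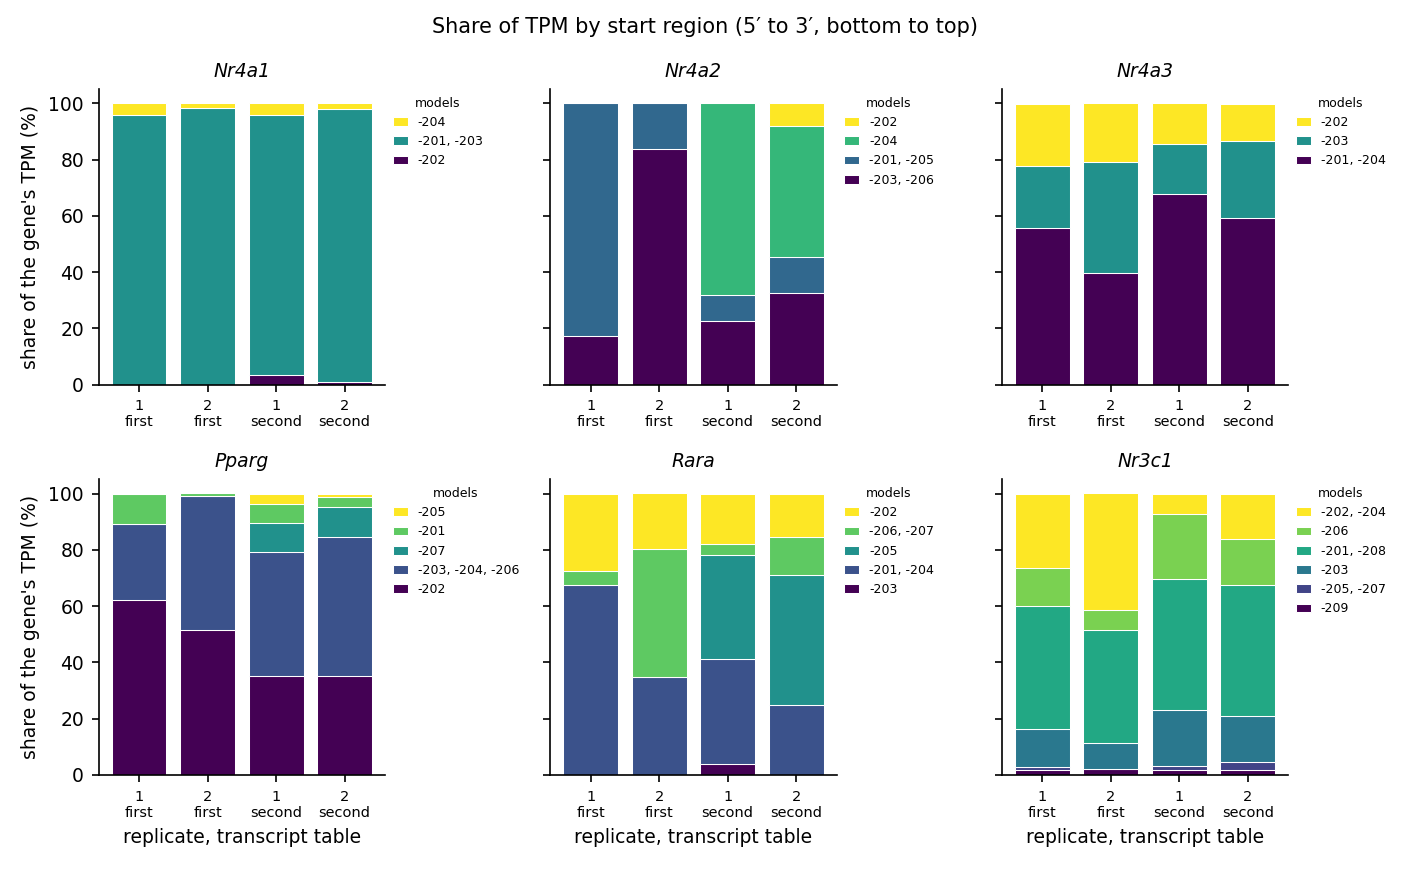
Share of each gene's TPM (%) by start region, with models that begin within 200 bases of each other joined, for 6 receptor genes. The 4 bars of a panel are replicates 1 and 2 in the first and in the second transcript table, stacked from the most upstream start at the bottom to the most downstream at the top. The start of Nr4a1-201 and Nr4a1-203 takes nearly the whole of all 4 bars of Nr4a1, while the bars of Nr4a2 and Rara differ between libraries and between tables.

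Nuclear RNA holds transcripts that keep introns or do not code for protein, and the receptors differed in how much of their level these made up. Models not annotated as protein-coding held 45.4% and 44.3% of the TPM of Nr4a3 in replicates 1 and 2, on the processed transcripts Nr4a3-204 and Nr4a3-202. For Ppard the share was 40.5% and 37.0%, and for Nr4a1 4.15% and 1.59%. The median over the 8622 protein-coding genes at 1 TPM or more in each library was 26.5% and 25.4%, so on this scale Nr4a3 and Ppard lay above it and Nr4a1 below it in both libraries. By expected counts, which are not divided by length, the share of Nr4a3 was 12.3% and 12.0%, near the median of 11.4% and 11.0%, while Ppard lay above and Nr4a1 below the median in both libraries, at 35.1% and 1.35% in replicate 1. For Nr4a2 the share of TPM was 13.8% and 57.1%, on either side of the median. Pparg and Rara held 0% in the first transcript table. In the second, the share was 17.8% and 29.2% for Pparg, 37.2% and 46.5% for Rara and 74.1% and 81.3% for Nr4a2. The median there was 37.2% and 39.9%. Every model of Nr3c1 is annotated as coding, so its share of 0% follows from the annotation.

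Set in the whole superfamily, 18 of 49 nuclear receptor genes were at 1 TPM or more in each library, against 39.2% of protein-coding genes, and 6 were at 10 or more, against 14.4%. The median level of the 49 was 0.12 in replicate 1 and 0.04 in replicate 2 on the log2(TPM + 1) scale, against 0.36 and 0.29 for protein-coding genes. The 6 at 10 or more were Nr3c1, Nr4a1, Ppard, and the 3 receptors Nr1h2 (32.26 and 23.93 TPM), Nr1d2 (27.69 and 15.72 TPM) and Esrra (17.63 and 10.70 TPM). Nr1h2 encodes the oxysterol receptor LXRβ, Nr1d2 the clock repressor REV-ERBβ, and Esrra an orphan receptor of mitochondrial genes. Nr1h3, the LXRα gene, was at 17.98 and 8.60 TPM.

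At lower levels were Nr2c2 (7.20 and 6.13 TPM), Rxrb, Rarg (4.83 and 3.53 TPM) and the estrogen receptor gene Esr1 (4.78 and 2.65 TPM). Nr6a1 (2.01 and 1.80 TPM), the thyroid hormone receptor gene Thra (1.53 and 1.11 TPM) and Nr2c1 (1.05 and 1.02 TPM) were nearer to 1. Of the 31 others, 18 were at 0 counts in both libraries, among them Ppara, Rarb and Rxrg, the closest relatives of members described here. Of 22 superfamily genes with a measured replicate ratio, 2 were over 2-fold apart, against 1.18% of all genes: Nr4a2, and Nr2f6, which had 98 counts in replicate 1 and 28 in replicate 2 and a log2 ratio of -1.29.

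**Figure D5:**
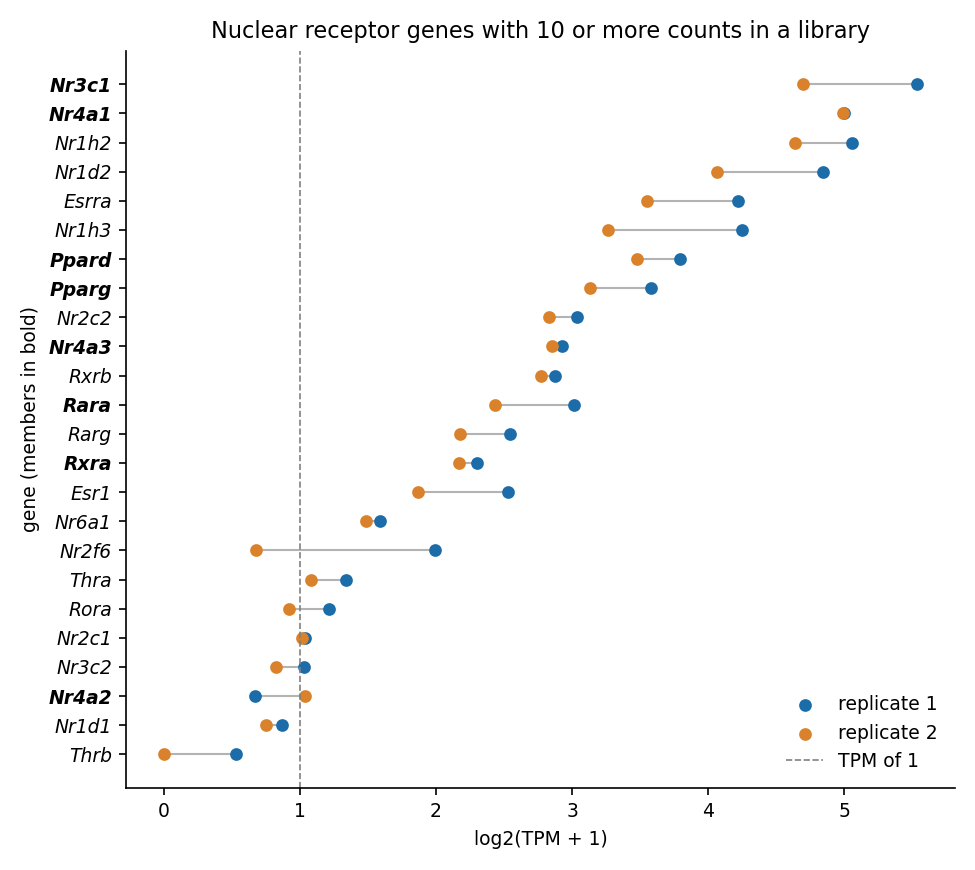
Level on the log2(TPM + 1) scale of the nuclear receptor genes with at least 10 counts in a library, replicate 1 in blue and replicate 2 in orange, with the 9 genes described here in bold where they pass and a dashed line at a TPM of 1. Nr4a2 is 1 of the genes that lie on both sides of the line, and its replicate 2 is the higher, whereas replicate 1 is the higher for the others drawn.

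The factors that nuclear receptors recruit were nearly all present. All 8 corepressor genes checked were at 1 TPM or more in each library, against 39.2% of protein-coding genes. The list median was 3.37 and 3.10 on the log2(TPM + 1) scale in replicates 1 and 2, against 0.36 and 0.29 for protein-coding genes. The scaffold Ncor1 led at 51.20 and 38.94 TPM, above Tbl1xr1 at 10.25 and 10.61 TPM, and Lcor was the lowest at 3.04 and 2.32 TPM. Of 10 coactivator genes 8 passed, with a median of 4.09 and 3.79. Ncoa2, the p160 coactivator GRIP1, was at 21.84 and 14.81 TPM, Ncoa3 at 18.73 and 15.40 TPM, and the acetyltransferase gene Ep300 at 15.90 and 14.53 TPM. Ppargc1a, which encodes PGC-1α, was the lowest, with 1 count in replicate 1 and 0 in replicate 2.

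Some chaperones of the glucocorticoid receptor were more abundant per length than the receptor itself. Of 7 genes 6 were at 1 TPM or more in each library, against 39.2% of protein-coding genes. The list median was 4.02 and 3.78 on the log2(TPM + 1) scale, against 0.36 and 0.29 for protein-coding genes. Hspa8 was at 189.51 and 148.62 TPM, Hsp90ab1 at 64.74 and 51.54 TPM and Hsp90aa1 at 54.42 and 42.11 TPM, while Fkbp5, which lowers the receptor's affinity for hormone and is also its target, was at 0.39 and 0.74 TPM. Of 7 target genes of the receptor 4 passed, with a median of 2.27 and 1.58. The highest of the 7 were Dusp1, a MAP kinase phosphatase that Toll-like receptors also switch on, at 422.90 and 309.30 TPM, Sgk1 at 41.56 and 27.07 TPM and Tsc22d3 at 10.04 and 9.34 TPM. Zbtb16 had the lowest mean, at 0.47 and 0.59 TPM, and Fkbp5 was lower than it in replicate 1. Without a hormone-treated or untreated group, these levels do not separate the receptor's part from that of Lipid A.

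All 9 genes of the list of factors known to act on NR4A transcription were at 1 TPM or more in each library. The share over protein-coding genes was 39.2%. The list median was 4.46 and 4.15 on the log2(TPM + 1) scale, against 0.36 and 0.29 for protein-coding genes. Mef2a was at 84.37 and 70.89 TPM. Crtc2, a coactivator of the cyclic AMP response factor, was at 67.77 and 43.95 TPM, and Creb1, the gene of that factor, at 39.82 and 30.33 TPM. Crem was the lowest at 3.26 and 2.73 TPM.

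Among target genes of the heterodimer receptors, all 4 LXR and RXR targets were at 10 TPM or more in both libraries. The share over protein-coding genes was 14.4%. The list median was 4.74 and 4.30 on the log2(TPM + 1) scale, against 0.36 and 0.29 for protein-coding genes. The cholesterol exporter gene Abca1 led at 284.52 and 187.88 TPM, above Mylip at 31.87 and 21.68 TPM and Abcg1 at 20.58 and 16.16 TPM, and Srebf1 was the lowest at 18.56 and 11.27 TPM. Of 6 PPAR targets 4 passed a TPM of 1, against 39.2% of protein-coding genes, and the list median was 4.58 and 4.08. The lipid droplet gene Plin2 was at 115.60 and 94.44 TPM, the scavenger receptor gene Cd36 at 63.32 and 51.25 TPM and the fatty acid carrier gene Fabp4 at 68.99 and 37.60 TPM, while Pdk4 had 1 count in replicate 1 and 0 in replicate 2.

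Retinoid and vitamin D genes were split. Of 7 retinoic acid and vitamin D targets 2 passed a TPM of 1 in both libraries, against 39.2% of protein-coding genes. The list median was 0.01 and 0.00 on the log2(TPM + 1) scale, against 0.36 and 0.29 for protein-coding genes. Those 2 were high: Dhrs3, a retinaldehyde reductase gene, at 171.11 and 133.95 TPM, and the transglutaminase gene Tgm2 at 105.21 and 60.53 TPM. The next, Cyp26a1, had 4 counts in replicate 1 and 0 in replicate 2, and Rarb, Stra6 and Cyp24a1 had 0 in both. None of 9 genes of enzymes that make or convert receptor ligands passed in both libraries, and their median was 0.08 and 0.04. The highest were Hsd11b2 at 1.33 and 0.61 TPM, Dhrs9 at 1.15 and 0.57 TPM and Rdh10 at 0.69 and 0.54 TPM, and the lowest, Aldh1a1, was at 0 counts. In all 9 of these lists of partners, targets and enzymes, 0 genes of those with a mean count of at least 50 were over 2-fold apart between the libraries, against 1.18% of all genes.

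Genes nearest in level were taken from the protein-coding genes by distance on the log2(TPM + 1) scale over the 2 libraries. For Nr4a1 they were Nabp1 (31.15 and 30.58 TPM), Ythdc1 (32.20 and 30.72 TPM) and Msmo1 (32.28 and 30.18 TPM). For Nr4a3 they were Cetn3, Plk4 and Rmdn3, and for Nr4a2 Nup35, Zfp799 and Hdc. Over 2 libraries of 1 condition this is a likeness of level and not of pattern.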

How the data were processed

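Total RNA of the nucleoplasmic fraction was sequenced in 2 libraries of 1 group. Each library came with a gene table and a pair of transcript tables, made on mm10 with GENCODE M21, per the file headers. The expected counts in the deposited gene and first transcript tables are estimated numbers of reads, not normalised by the authors. TPM, as deposited, is the count per effective length, which the authors scaled to the same total in each library. The estimated counts and TPM of the second table, also deposited, were summed per gene. No aligner, quantifier, version or strand setting is given in the sources used here. The deposited intervals of TPM are quoted for the NR4A genes only, and their level is not given there.

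Rows that name no annotated gene (26345, with 0.662% and 0.232% of counts) were left out of library sizes, which were then 21115765 and 15607391. Gene levels were compared as log2(TPM + 1) within each library. Expected counts were rounded, 0.5 was added, and the replicate ratio was taken after TMM in edgeR 4.0.16 under R 4.3.3 over genes with a mean count of at least 50, which was tested on simulated data. DESeq2 1.42.0 size factors, pseudocount 0.1, no count filter, CPM, the second table, rescaling of TPM, TPM limits of 0.5 and 2, and leaving out each replicate were alternatives. Tables were handled in pandas 2.3.3, numpy 2.4.6 and scipy 1.17.1. The replicates share a donor label, so their spread may be smaller than that between animals. Without molecular identifiers, reads may repeat a molecule, so intervals cover counting error only.

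The genes and lists were chosen with earlier results of these data known. Named were all 9 receptors, superfamily genes at 1 TPM or more in each library, the 3 highest genes and the lowest of each other list, transcripts with at least 10% of a gene's TPM, and for each NR4A gene the 3 genes nearest in level. One gene that this rule takes is not reported here. Further names (Nr2f6, Rxrg, Ppara, Rarb, Cyp24a1, Stra6, Cyp27b1, Esrrg and the transcripts below 10%) were added after their values were seen. Promoter sequences matched 8 of 9 genes in the RefSeq table, and that of Nr3c1 is not reported here. Protein sequences were not analysed here.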

Additional observations from a re-analysis of the deposited data

How the results depend on the processing

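Levels in TPM moved by more than the SD of 2 libraries in the second transcript table for 6 of the 9 receptors: the mean was 19.3 for Nr3c1, 17.0 for Nr4a1, 7.72 for Ppard, 4.49 for Nr4a3, 1.56 for Rxra and 1.58 for Nr4a2. Rescaled over nuclear-genome protein-coding genes, the means were 156 for Nr3c1, 143 for Nr4a1, 52.3 for Ppard, 42.3 for Pparg, 29.6 for Nr4a3, 25.6 for Rara, 17.1 for Rxra, 3.95 for Nr4a2 and 0.0995 for Vdr, a shift that follows from the smaller total. Differences on the log2 scale also moved. With a pseudocount of 0.1, in the second transcript table and in CPM, in that order, Nr4a1 exceeded Nr4a3 by 2.25, 1.70 and 1.60, Nr4a1 exceeded Nr4a2 by 5.12, 2.79 and 4.43, and Nr4a3 exceeded Nr4a2 by 2.87, 1.09 and 2.82. Nr3c1 exceeded Nr4a1 by 0.79 in CPM. Turned in sign were Pparg minus Nr4a3 (-0.32) and Rara minus Rxra (-0.23) in CPM, and Rxra minus Nr4a2 (-0.01) and Nr4a3 minus Rara (-0.08, a pair not separated in TPM either) in the second transcript table. Genes over 2-fold apart between replicates numbered 119, but 5740 without a count filter, which admits genes of few counts, and 569 in the second transcript table, an alternative chosen after seeing the data. The split turned there, with 431 higher in replicate 2 and 138 higher in replicate 1. The superfamily median was -2.67 with a pseudocount of 0.1 and 2.93 over members at a TPM of at least 1. The cause of the other moves was not tested. Of the remaining results under the alternatives, 36 moved, 1 fell under 2-fold (Nr4a2) and 145 did not move. The last count includes means with 1 replicate left out, which could not move. Leaving out 1 of 2 libraries always shifts a mean by less than their SD. No paired analysis was possible because the samples form 1 group. Counts limit Nr4a2 (43 and 66) and Vdr (1 and 3) most.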

Other observations

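Esrrg, the gene of an orphan receptor related to Esrra, was at 0 counts in both libraries of the gene table and at 30.8 TPM in replicate 1 and 37.0 TPM in replicate 2 of the second transcript table, where Nr4a1 was at 14.1 and 20.0 TPM. All but 1.39 of its estimated counts there, 810 in replicate 1 and 710 in replicate 2, were on Esrrg-205, a 507-base processed transcript of 2 exons. The 4 coding models of Esrrg held 0 to 0.0127% of its TPM in the second transcript table. Esrrg-205 shared 0 of its 472 distinct stretches of 31 bases with transcripts of other genes. Why the tables differ for this gene was not tested.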
